A study of Mus musculus with 12 samples.

Results

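The genes of cell proliferation examined here were 35 genes chosen by name for their work in DNA replication and mitosis, out of 55885 genes listed in RNA sequencing of mouse hearts. The rule names them by function and uses no measured value, but the genes were chosen with earlier results of these data known. By role they were 10 genes of replication and nucleotide supply, 11 cyclins, kinases and genes of their degradation, and 14 genes of the spindle, kinetochore, chromosomes and cytokinesis. The last pair of roles, 25 genes, is called the mitosis genes below.

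The 12 hearts came from male mice aged 8 weeks, C57BL/6 by the labels and C57BL/6J by the methods, 3 hearts in each of 4 groups. Saline were wild-type mice without cisplatin, and CDDP were wild-type mice given cisplatin, a platinum drug that crosslinks DNA, at 6 mg/kg into the peritoneum on days 1, 8 and 15. STING-/- were mice with the genotype Tmem173-/-, which lack the innate immune adaptor STING in all their cells, without cisplatin. STING-/-+CDDP were such mice given the same cisplatin. Hearts were taken on day 22, so the values describe the tissue after the last dose and not during the first response to it. The sample labels call the hearts without cisplatin untreated, where the methods describe saline.

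Sting1, the gene removed, was listed at 6.5 to 12.28 TPM (transcript abundance scaled to transcript length and to the library) with saline and 5.62 to 22.11 with CDDP, against 2.87 to 5.96 for STING-/- and 3.37 to 4.67 for STING-/-+CDDP. The transcript was thus listed in every heart of the knockout, at a lower range that overlapped that of the CDDP hearts. Of 10 marker genes of cardiomyocytes, 0 were at 0 throughout a group, and they summed to 30217 to 57199 TPM over the 12 hearts. Markers of atrial muscle ranged from 310 to 39132 TPM among the 3 Saline hearts alone, and the part of this in the results was not tested.

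A cell that divides copies its DNA in S phase and separates the copies in mitosis. The MCM proteins form the ring-shaped helicase that opens the DNA for replication, while ribonucleotide reductase, thymidylate synthase and thymidine kinase supply its nucleotides. Cyclin A2 and the B cyclins with the kinase Cdk1 drive entry into mitosis, the Aurora and Polo kinases steer it, and the anaphase-promoting complex ends it by having the cyclins degraded. Most cardiomyocytes of an adult mouse no longer divide, and the dividing cells of the adult heart are mainly other cells, such as endothelial cells, fibroblasts and immune cells.

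The levels of the 35 genes differed by role. All 10 replication genes reached 1 TPM in 3 or more hearts, the minimum for the test, whereas 8 of the 25 mitosis genes did. The mean TPM over the 12 hearts ran from 1.56 for Rrm2 to 9.76 for Mcm7 among the replication genes. Among the mitosis genes it ran from 0.122 for Hmmr to 2.21 for Cdk1, with Stmn1 apart at 21.2. TPM is scaled to transcript length, so these levels can be set side by side. Stmn1 encodes stathmin, which destabilizes microtubules and is also used outside mitosis. Since 17 members were too low for the test with the minimum, each comparison is given also in a fit of all 27721 genes above 0 in any heart, which held all 35. Birc5, Cdk1, Prc1 and the other mitosis genes are low in all groups, and a difference between them is one between low TPM values.

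**Figure D1:**
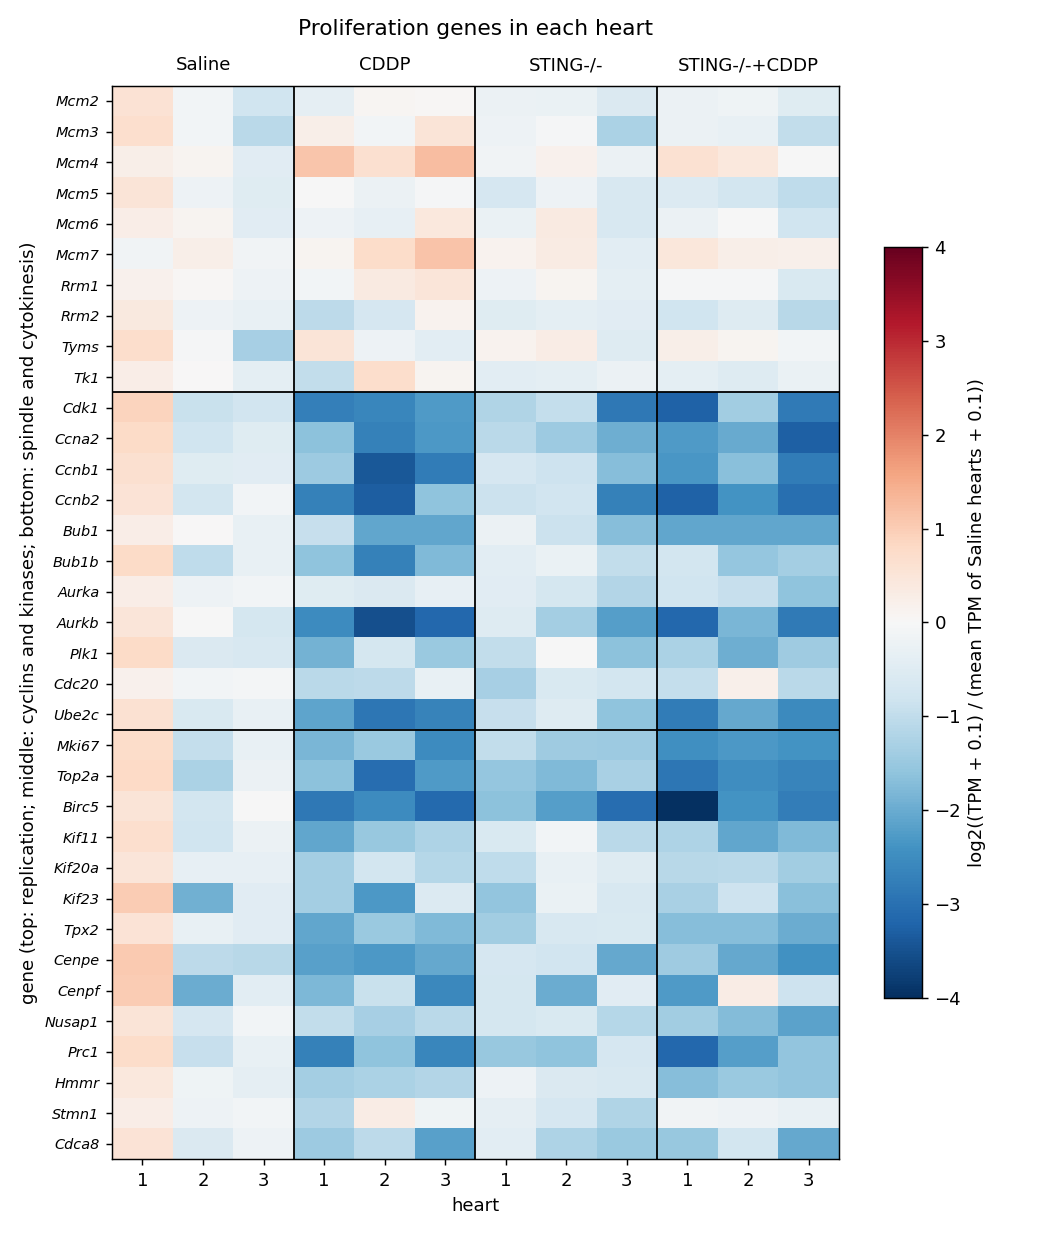
Heat map of the 35 genes (rows, in the 3 roles) in the 12 hearts (columns, numbered within each group). Colour gives log2 of the TPM plus 0.1 over the mean TPM of the 3 Saline hearts plus 0.1; most mitosis cells of the CDDP and STING-/-+CDDP hearts are blue, below the Saline mean, with exceptions such as Stmn1 in the second CDDP heart (31.4 TPM) and Cdc20 in the second STING-/-+CDDP heart (3.23 TPM), and Mcm4 in the replication rows is red in the CDDP hearts.

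Cisplatin in wild-type mice is the first comparison. Most mitosis genes had lower values in the CDDP hearts, and the replication genes did not share this: 22 of the 35 members had all 3 CDDP hearts below all 3 Saline hearts, where 15.7% of the 18329 genes with a mean TPM of at least 0.1 did. These were all 11 cyclins, kinases and degradation genes and 11 of the 14 spindle, kinetochore, chromosome and cytokinesis genes, and 0 of the 10 replication genes. Mcm4 was the 1 member with all CDDP hearts above all Saline hearts, where 13.1% of genes were. In the limma fit with Benjamini-Hochberg adjustment, 4 of 18 tested members were lower (Ube2c, Birc5, Cdk1 and Prc1) and 1 was higher (Mcm4), against 10.4% and 8.52% of 13815 genes. Of these 18, 4 (Birc5, Prc1, Ube2c and Cenpf) would not have met the minimum without the Saline hearts, so a difference in them was partly fixed by the filter. In the fit without a minimum, 12 of 35 were lower and 1 was higher, against 4.19% and 3.33% of genes. Leaving out 1 heart at a time gave 2 to 5 members with the minimum and 5 to 15 without it, 6 of them without the first Saline heart and 5 without the third CDDP heart. The median log2 fold change of the members was -0.18 over the 18 tested, which turned to 0.13 without the first Saline heart, and -0.48 over all 35, where the median of all genes was 0.0. In whole tissue, fewer dividing cells and less of these RNAs per cell cannot be told apart.

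The summed levels show mitosis and replication genes apart. The 24 mitosis genes without Stmn1 summed to 57.5, 20.6 and 27.0 TPM with saline and to 8.3, 7.91 and 9.21 TPM with CDDP. The 10 replication genes summed to 55.7, 45.3 and 31.8 TPM with saline and to 46.3, 52.4 and 66.2 TPM with CDDP. The mitosis sums of the 2 groups did not overlap and the replication sums did. Without the 3 genes of the highest mean, the other 21 mitosis genes still summed to 13.2 to 39.6 TPM in Saline hearts and 5.52 to 5.7 TPM in CDDP hearts. The first Saline heart was the highest of all 12 hearts for 28 of 35 members. It was never the lowest Saline heart for a mitosis gene, so the separation of the groups is set by the other two Saline hearts.

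**Figure D2:**
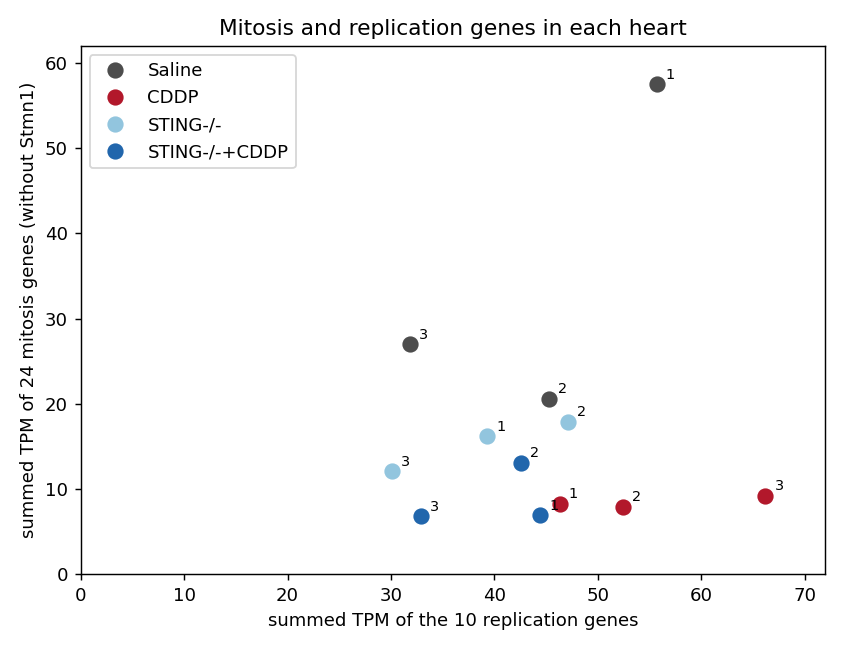
Summed TPM of the 24 mitosis genes without Stmn1 (vertical) against summed TPM of the 10 replication genes (horizontal), 1 point per heart, numbered within its group. The CDDP hearts lie at 7.91 to 9.21 TPM of mitosis genes across 46.3 to 66.2 TPM of replication genes, and the first Saline heart stands apart at 57.5 and 55.7 TPM.

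Summed markers of erythroid cells, lymphocytes, macrophages, endothelial cells and adipocytes were lower in CDDP than in Saline hearts without overlap. So were the summed mitosis genes, while the markers of neutrophils were not. Erythroid markers, of which 12 of 13 were in the table, summed to 4159 to 9337 TPM in Saline hearts and 45.7 to 1275 TPM in CDDP hearts, with 7 of 7 tested lower in limma. In the knockout they summed to 310 to 1488 TPM without and 85.1 to 314 TPM with cisplatin. Lymphocyte markers summed to 3.28 to 11.9 TPM in Saline hearts and 0.56 to 1.71 TPM in CDDP hearts, and to 2.65 to 5.34 TPM without and 1.09 to 1.29 TPM with cisplatin in the knockout. Of these 10 markers only Nkg7 reached the minimum for the test, and it was lower in CDDP against Saline. Nkg7 would not have met that minimum without the Saline hearts, so its lower call was partly fixed by the filter. Macrophage markers summed to 551 to 767 TPM in Saline hearts and 190 to 353 TPM in CDDP hearts, with 7 of 10 lower. In the knockout they summed to 546 to 791 TPM without and 227 to 456 TPM with cisplatin, also without overlap. There 2 of 10 were lower in limma, where 0.934% of genes were called in either direction. No marker of these 3 lists was at 0 in every heart of a group. Endothelial markers summed to 737 to 889 TPM in Saline hearts and 611 to 656 TPM in CDDP hearts, with 4 of 10 lower, and in the knockout to 495 to 715 TPM without and 522 to 753 TPM with cisplatin, with 0 of 10 called. The list was split in wild-type mice. Cdh5, Kdr, Tie1 and Egfl7 were lower, while Pecam1, Flt1, Esam and Cldn5 had log2 fold changes of 0.03 to 0.4 without passing. Neutrophil and granulocyte precursor markers went the other way, from 7.73 to 32.9 TPM in Saline hearts to 27.0 to 1100 TPM in CDDP hearts, overlapping, with 0 of 4 tested called. The 1100 TPM were those of the first CDDP heart alone, and the median sums were 9.1 TPM with saline and 44.2 TPM with CDDP. Fibroblast markers overlapped, at 2039 to 5044 TPM with saline and 1700 to 4876 TPM with CDDP. The 4 of 10 that were lower were the genes of matrix proteins Col1a1, Col1a2, Col3a1 and Lum. Pericyte and smooth muscle markers overlapped too, at 545 to 626 and 191 to 593 TPM, with 3 of 8 lower. Adipocyte markers summed to 918 to 1839 TPM in Saline hearts and 482 to 694 TPM in CDDP hearts. Fabp4 made up most of these sums, at 898.19 to 1838.4 TPM with saline and 457.33 to 684.47 TPM with CDDP, so the lower sum is that of 1 gene. Of the 4 tested, Fabp4 was lower (-1.18), while Adipoq, Plin1 and Cidec had log2 fold changes of 0.03 to 1.38 without passing. Beside these counts, 10.4% of 13815 genes were lower in CDDP against Saline in limma. The part of these cell types in the lower mitosis genes was not tested.

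Among the cyclins, kinases and degradation genes, Cdk1 is the kinase that starts mitosis. Its TPM were 9.77, 2.76 and 3.04 with saline, 0.69, 0.76 and 1.01 with CDDP, 2.21, 2.63 and 0.63 for STING-/- and 0.46, 1.93 and 0.64 for STING-/-+CDDP. The CDDP hearts lay below every Saline heart, with the first Saline heart far above the rest, while the STING-/-+CDDP hearts overlapped the STING-/- hearts. On the log2(TPM + 1) scale Cdk1 fell by 1.59 with cisplatin in wild-type mice (SE 0.43, limma adjusted p = 0.0245). That call was lost without the first Saline heart or without either of the first 2 CDDP hearts (adjusted p of up to 0.0869), and in the fit without a minimum (adjusted p = 0.0656). It was lost too when only the Saline and CDDP hearts were fitted.

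Ube2c encodes the ubiquitin-conjugating enzyme with which the anaphase-promoting complex starts ubiquitin chains. Its TPM were 4.88, 2.02 and 2.53 with saline, 0.65, 0.34 and 0.41 with CDDP, 1.62, 2.16 and 0.97 for STING-/- and 0.37, 0.68 and 0.46 for STING-/-+CDDP. Every heart with cisplatin lay below every heart of the same genotype without it. Ube2c fell by 1.44 in wild-type mice (SE 0.26, limma adjusted p = 0.00436), and the call held with each of the 12 hearts left out in turn and without a minimum. Its gene lies over Tnnc2 on the opposite strand, which was listed at 0 to 0.52 TPM. Whether the libraries kept strand is not given in the sources used here, so reads of such gene pairs cannot be told apart.

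Cdc20 activates the anaphase-promoting complex. Its TPM were 3.16, 2.57 and 2.65 with saline, 1.26, 1.29 and 2.27 with CDDP, 1.04, 1.78 and 1.64 for STING-/- and 1.4, 3.23 and 1.27 for STING-/-+CDDP. The Saline hearts were above the CDDP and STING-/- hearts, but the second STING-/-+CDDP heart was the highest of all. The log2 fold change with cisplatin in wild-type mice was -0.56 (SE 0.26, limma adjusted p = 0.148), which did not pass. Cdc20 overlaps Elovl1 on the opposite strand, at 15.93 to 28.76 TPM.

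The 8 other genes of this role had mean Saline levels between 0.32 TPM for Bub1 and 1.58 TPM for Ccnb2. In the limma fit without a minimum, the cyclin genes Ccna2 (-0.93, adjusted p = 0.0375), Ccnb1 (-0.79, adjusted p = 0.0263) and Ccnb2 (-1.05, adjusted p = 0.0284) were lower in the CDDP hearts. So were Aurkb (-0.94, adjusted p = 0.0123), the kinase of the chromosomal passenger complex, and Bub1 (-0.34, adjusted p = 0.024), a kinase of the spindle checkpoint. Bub1, Ccnb1 and Aurkb were listed at 0 in at least 1 heart, and Bub1 in all 3 STING-/-+CDDP hearts. Bub1b (-0.69, adjusted p = 0.0712), Plk1 (-0.49, adjusted p = 0.211) and Aurka (-0.22, adjusted p = 0.293) did not pass, although their CDDP hearts lay below all Saline hearts.

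Among the spindle and chromosome genes, Birc5 encodes survivin, which guides Aurora B to the centromere. Its TPM were 2.82, 1.13 and 1.91 with saline, 0.18, 0.26 and 0.14 with CDDP, 0.56, 0.35 and 0.15 for STING-/- and 0.03, 0.29 and 0.2 for STING-/-+CDDP. The 3 Saline hearts lay above the other 9 hearts, those of the STING-/- mice without cisplatin included. Birc5 fell by 1.27 with cisplatin in wild-type mice (SE 0.23, limma adjusted p = 0.00438). It reached the minimum for the test only through the Saline hearts, and it was not tested when 1 of those was left out. It passed in the other 9 such fits and in the fit without a minimum (limma adjusted p = 0.00685).

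Prc1 bundles the microtubules of the midzone during cytokinesis. Its TPM were 3.22, 0.97 and 1.53 with saline, 0.21, 0.56 and 0.23 with CDDP, 0.6, 0.56 and 1.15 for STING-/- and 0.13, 0.34 and 0.57 for STING-/-+CDDP. The wild-type groups were apart, and the knockout groups overlapped by the third STING-/-+CDDP heart. Prc1 fell by 1.06 in wild-type mice (SE 0.28, limma adjusted p = 0.0225), a call lost without the first or without the third CDDP heart (adjusted p of up to 0.0596) and held in 7 of the 9 fits that tested it. The call was lost too when only the Saline and CDDP hearts were fitted (limma adjusted p = 0.0911). Without the first Saline heart, the third Saline heart or the third STING-/- heart, Prc1 fell under the minimum and was not tested. It overlaps Rccd1 on the opposite strand, at 0.69 to 6.78 TPM.

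Stmn1, Kif23 and Top2a had the highest mean levels of this role. Stmn1 was listed at 30.63, 22.38 and 23.62 TPM with saline, 11.18, 31.4 and 22.66 with CDDP, 19.68, 15.95 and 11.12 for STING-/- and 23.08, 22.32 and 20.63 for STING-/-+CDDP. The CDDP hearts spanned the Saline hearts (-0.32, SE 0.31, limma adjusted p = 0.507), and the STING-/-+CDDP hearts lay above the STING-/- hearts (0.51, adjusted p = 0.514). Stmn1 was the 1 member to lie higher in that way in the knockout.

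Kif23 is a kinesin of the midzone. It was listed at 3.52, 0.38 and 1.23 TPM with saline, 0.61, 0.27 and 1.15 with CDDP, 0.51, 1.42 and 1.07 for STING-/- and 0.63, 0.93 and 0.47 for STING-/-+CDDP. All 4 groups overlapped (CDDP against Saline -0.55, SE 0.38, limma adjusted p = 0.331). Top2a encodes topoisomerase II alpha, which untangles the sister chromosomes. It was listed at 4.29, 0.96 and 2.07 TPM with saline, 0.71, 0.21 and 0.43 with CDDP, 0.76, 0.65 and 0.93 for STING-/- and 0.24, 0.35 and 0.31 for STING-/-+CDDP. Cisplatin hearts lay below their controls in both genotypes, and in the limma fit without a minimum Top2a was lower in the CDDP hearts (-1.14, adjusted p = 0.0467).

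Of the other 9 genes of this role, Mki67, whose protein Ki-67 coats mitotic chromosomes and is the common marker of cycling cells, ranged from 0.44 to 1.63 TPM with saline and from 0.08 to 0.27 TPM with CDDP. Its change passed in the limma fit without a minimum (-0.67, adjusted p = 0.0487). Tpx2, a spindle assembly factor (-0.74, adjusted p = 0.0197), and Hmmr, a spindle-associated protein (-0.26, adjusted p = 0.0189), passed too. The log2 fold changes of Kif11, Kif20a, Cenpe, Cenpf, Nusap1 and Cdca8 lay between -0.69 and -0.4 without passing, with adjusted p between 0.0712 and 0.424. All but Cenpf of these had CDDP hearts below every Saline heart.

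**Figure D3:**
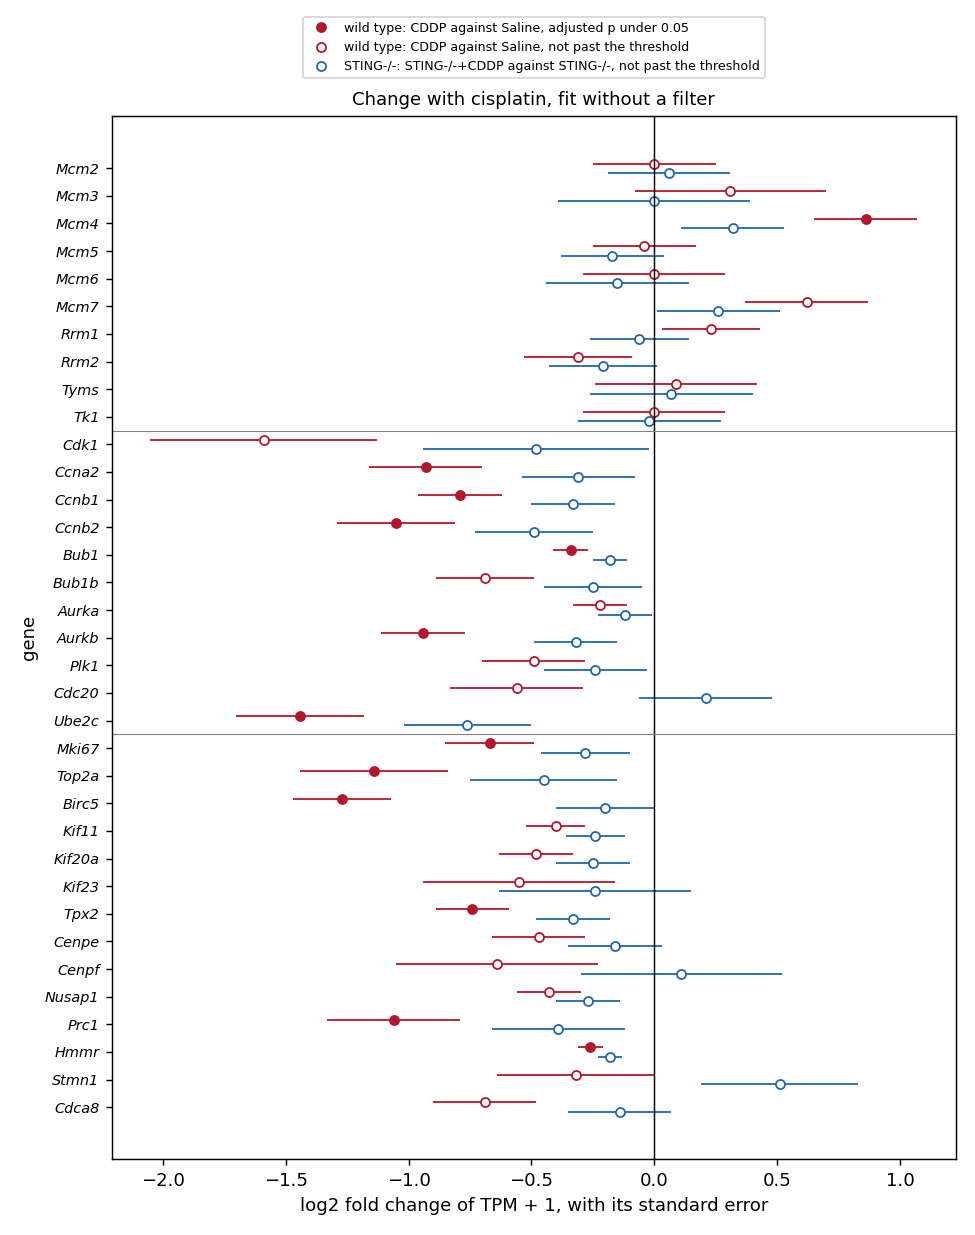
Log2 fold change of TPM plus 1 with cisplatin for the 35 genes (rows, in the 3 roles), with the standard error as a bar, from the fit without a minimum. Red is CDDP against Saline and blue STING-/-+CDDP against STING-/-; filled points have an adjusted p under 0.05, which holds for 13 genes in red and 0 in blue.

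Among the replication genes, Mcm4, a subunit of the helicase ring at chr16:15623897-15637400 (GRCm38), was the 1 that passed. Its TPM were 4.1, 3.76 and 2.53 with saline, 7.67, 5.45 and 8.2 with CDDP, 3.16, 3.88 and 2.95 for STING-/- and 5.33, 4.64 and 3.39 for STING-/-+CDDP. The lowest CDDP value exceeded all 9 values of the other groups. Mcm4 rose by 0.86 (SE 0.21, limma adjusted p = 0.0167), a call lost without the third Saline or the third CDDP heart (adjusted p of up to 0.0604). The call was lost too when only the Saline and CDDP hearts were fitted (limma adjusted p = 0.0762).

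Mcm7, Rrm1 and Mcm6 had the highest mean levels. Mcm7 was listed at 7.16, 9.39 and 7.19 TPM with saline, 8.52, 13.24 and 17.46 with CDDP, 8.79, 9.93 and 5.9 for STING-/- and 10.92, 9.42 and 9.14 for STING-/-+CDDP. The first CDDP heart lay within the Saline hearts, and the difference of 0.62 did not pass (SE 0.24, limma adjusted p = 0.0997). It passed when the hearts were scaled by the median of ratios or by quantiles. Mcm7 overlaps Cops6, at 69.41 to 113.32 TPM, and Ap4m1 on the opposite strand.

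Rrm1, the large subunit of ribonucleotide reductase, was listed at 7.58, 6.93 and 5.82 TPM with saline, 6.27, 8.69 and 9.56 with CDDP, 5.9, 7.32 and 5.14 for STING-/- and 6.52, 6.58 and 4.43 for STING-/-+CDDP. Mcm6 was listed at 7.96, 7.07 and 4.75 TPM with saline, 5.7, 5.28 and 8.88 with CDDP, 5.49, 8.4 and 4.16 for STING-/- and 5.55, 6.48 and 3.73 for STING-/-+CDDP. All groups overlapped for both genes. The 95% interval of the log2 change with cisplatin in wild-type mice was -0.61 to 0.61 for Mcm6 and -0.21 to 0.67 for Rrm1 (limma, 3 hearts a group). The 6 others, Mcm2, Mcm3, Mcm5, Rrm2, Tyms and Tk1, had log2 fold changes between -0.31 and 0.31.

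**Figure D4:**
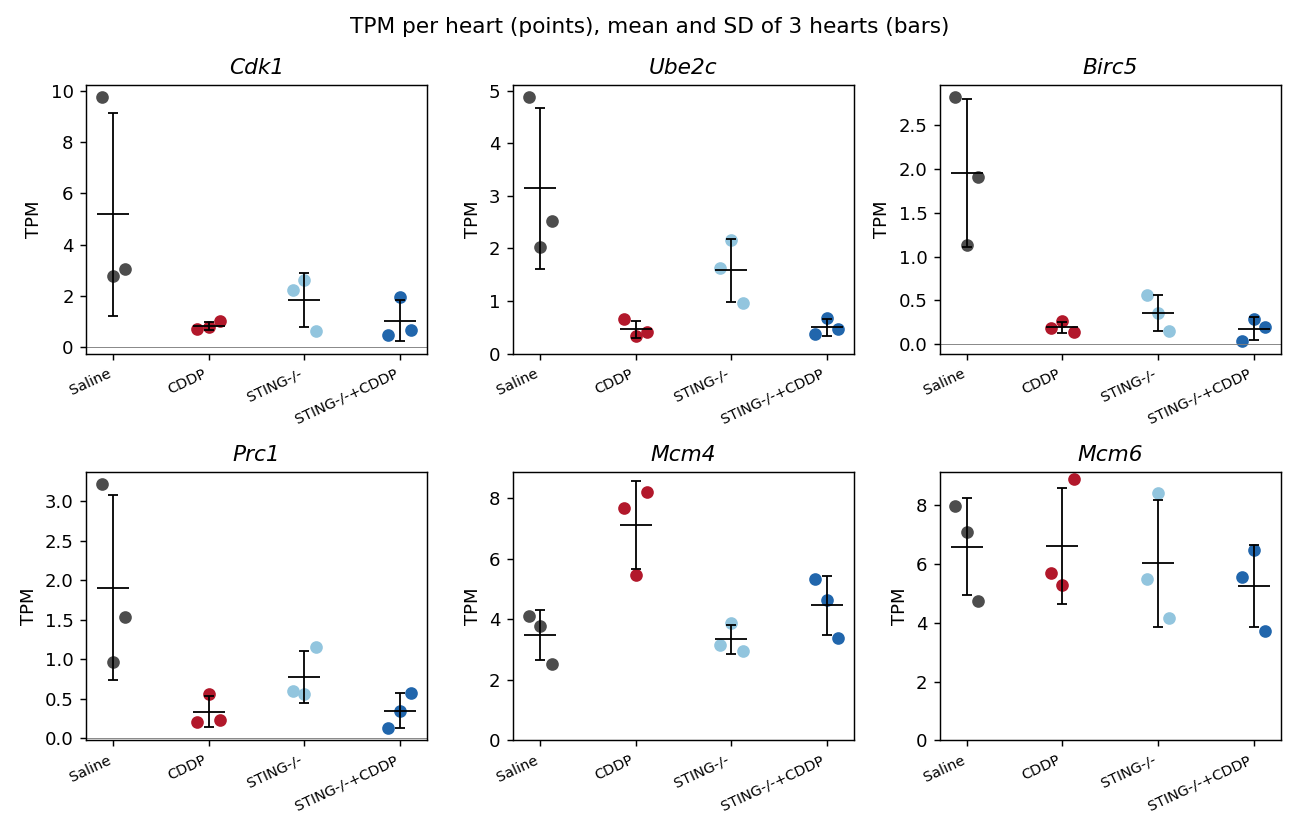
TPM of Cdk1, Ube2c, Birc5, Prc1, Mcm4 and Mcm6 in each heart (points) by group, with the mean and SD of 3 hearts as bars. The CDDP points of the first 4 genes lie below all Saline points, those of Mcm4 lie at 5.45 to 8.2 TPM above all Saline points, and the groups of Mcm6 overlap.

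Promoters are shown for the members that passed and were lower together with cisplatin, since genes of mitosis share short promoter words. Windows of 250 bases before to 50 bases after the RefSeq start (GRCm38.p6) were found for 29 of the 35 members, and for none of Ccna2, Aurkb, Kif20a, Tpx2, Mcm4 and Stmn1. Capitals mark the cell cycle genes homology region, searched as TTTGAA or TTTAAA, and the CCAAT box, both on either strand. Neighbouring words may share letters, as in Ube2c. Prc1 has 2 windows, of which the first is given.
Cdk1, chr10:69352863-69353162, minus strand: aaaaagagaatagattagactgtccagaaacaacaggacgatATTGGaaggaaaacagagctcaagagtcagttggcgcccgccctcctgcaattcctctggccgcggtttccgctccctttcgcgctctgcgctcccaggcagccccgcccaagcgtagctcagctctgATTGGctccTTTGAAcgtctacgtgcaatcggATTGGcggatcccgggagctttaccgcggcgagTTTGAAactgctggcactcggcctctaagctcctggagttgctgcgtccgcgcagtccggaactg
Ube2c, chr2:164769679-164769978, plus strand: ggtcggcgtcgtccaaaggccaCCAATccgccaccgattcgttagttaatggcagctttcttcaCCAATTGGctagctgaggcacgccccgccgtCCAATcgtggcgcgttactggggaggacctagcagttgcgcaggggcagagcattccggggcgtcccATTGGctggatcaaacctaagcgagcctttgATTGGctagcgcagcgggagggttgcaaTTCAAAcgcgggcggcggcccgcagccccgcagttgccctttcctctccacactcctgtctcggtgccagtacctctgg
Prc1, chr7:80294201-80294500, plus strand: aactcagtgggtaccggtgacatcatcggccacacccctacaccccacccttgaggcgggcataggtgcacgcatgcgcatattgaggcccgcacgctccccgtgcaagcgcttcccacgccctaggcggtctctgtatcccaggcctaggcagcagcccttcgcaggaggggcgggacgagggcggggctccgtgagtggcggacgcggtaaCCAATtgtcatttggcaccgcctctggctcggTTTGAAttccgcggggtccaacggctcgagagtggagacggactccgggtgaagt
Birc5, chr11:117848987-117849286, plus strand: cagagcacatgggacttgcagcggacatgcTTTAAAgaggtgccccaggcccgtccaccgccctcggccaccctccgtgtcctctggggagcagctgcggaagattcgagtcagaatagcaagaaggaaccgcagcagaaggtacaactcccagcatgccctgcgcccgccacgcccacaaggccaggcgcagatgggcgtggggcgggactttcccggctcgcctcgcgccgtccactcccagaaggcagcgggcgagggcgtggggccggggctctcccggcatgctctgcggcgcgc
The homology words stood at -71 and -15 in Cdk1, -29 in Ube2c, -5 in Prc1 and -220 in Birc5, counted from the start. A homology word was in the window of 18 of 20 mitosis genes (90.0%) and 4 of 9 replication genes (44.4%), and in 27.8% of all 27025 genes with a window. A CCAAT box was in 90.0% of the mitosis genes, 77.8% of the replication genes and 37.9% of all genes. The E2F words TTTCCCGC and TTTGGCGC were in 0 of 20 mitosis genes, 4 of 9 replication genes and 1.63% of all genes. A match describes letters in a window and is not a bound site.

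Cisplatin in STING-/- mice is the second comparison. The mitosis sums were 16.2, 17.9 and 12.1 TPM in the STING-/- hearts and 6.9, 13.1 and 6.82 TPM in the STING-/-+CDDP hearts, which overlapped by the second STING-/-+CDDP heart. Of the members, 11 had all cisplatin hearts below all controls, where 15.6% of genes did: Mki67, Top2a, Ccna2, Bub1, Kif11, Kif20a, Tpx2, Rrm2, Nusap1, Hmmr and Ube2c. Stmn1 was the 1 member above, where 6.33% of genes were. The limma fit called 0 of 18 members, against 0.934% of genes, with 1 at an unadjusted p under 0.05, where 13.5% of genes were. Without a minimum it called 0 of 35, against 0.166% of genes, with 3 at an unadjusted p under 0.05, where 9.79% of genes were. Ube2c had the smallest p (-0.76, SE 0.26, limma adjusted p = 0.215).

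Whether the response to cisplatin differed with STING was tested by the interaction, the change in STING-/- mice minus that in wild-type mice. The limma fit called 0 of 18 members, against 0.00724% of genes, and 0 of 35 without a minimum, against 0.00361%. At an unadjusted p under 0.05 there were 1 of 18, where 11.7% of genes were, and 2 of 35, where 8.29% were. Birc5 was the 1 of 18 (1.07, 95% interval 0.35 to 1.78, limma adjusted p = 0.322). It reached the minimum only through the Saline hearts, which also enter this contrast. The intervals of Cdk1 (-0.21 to 2.43) and Ube2c (-0.13 to 1.49) included both no difference and one of over 1 log2 unit. A difference in response between the genotypes was therefore neither shown nor bounded closely for these genes.

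Without cisplatin, the genotypes could be compared as well. The mitosis sums were 20.6 to 57.5 TPM in the Saline hearts and 12.1 to 17.9 TPM in the STING-/- hearts, without overlap. The replication sums overlapped, at 31.8 to 55.7 and 30.1 to 47.1 TPM. In all, 12 members had every STING-/- heart below every Saline heart, where 4.67% of genes did: Mki67, Top2a, Cdk1, Ccna2, Ccnb1, Ccnb2, Birc5, Aurka, Tpx2, Rrm2, Cdc20 and Stmn1. No member passed in limma, 0 of 18 against 0.0724% of genes and 0 of 35 without a minimum against 0.0144%. At an unadjusted p under 0.05 there were 6 of 18, where 3.69% of genes were, and 16 of 35 without a minimum, where 4.23% were. Birc5, Prc1 and Ube2c, among the 6, would not have met the minimum without the Saline hearts, so nothing is read from that count of 6. Birc5 came nearest (-1.1, SE 0.23, limma adjusted p = 0.214). CDDP against Saline, STING-/- against Saline and the interaction share the Saline hearts.

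Between the cisplatin groups, the mitosis sums overlapped, 7.91 to 9.21 TPM in CDDP and 6.82 to 13.1 TPM in STING-/-+CDDP. Aurka, Mcm3, Mcm4, Mcm5, Nusap1 and Hmmr, 6 members, had every STING-/-+CDDP heart below every CDDP heart, where 13.7% of genes did, and Bub1b was the 1 member above, where 6.42% of genes were. The limma fit called 0 of 18, against 1.22% of genes, and 0 of 35 without a minimum, against 0.0433%. At an unadjusted p under 0.05 there were 2 of 18, where 19.8% of genes were, and 1 of 35, where 13.1% were. Mcm4 had a log2 difference of -0.57 (95% interval -1.03 to -0.11, limma adjusted p = 0.167).

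With the cisplatin change averaged over the genotypes, 5 members passed in limma, the ones called in CDDP against Saline, a contrast that is part of this average. Ube2c (-1.1, adjusted p = 0.00234), Birc5 (-0.73, adjusted p = 0.00986), Cdk1 (-1.04, adjusted p = 0.0331) and Prc1 (-0.73, adjusted p = 0.0243) were lower, 4 of 18 against 12.6% of genes. As 3 of these 4 (Ube2c, Birc5 and Prc1) would not have met the minimum without the Saline hearts, nothing is read from that count. Mcm4 was higher (0.59, adjusted p = 0.0177), 1 of 18 against 7.28% of genes. Without a minimum, 13 of 35 were lower and 1 was higher, against 5.39% and 2.85% of genes. With a heart left out, the call of Cdk1 held in 5 of 12 fits, that of Prc1 in 8 of the 9 that tested it, that of Birc5 in 9 of 9, and those of Ube2c and Mcm4 in 12 of 12. Cdk1 did not pass in the average without a minimum (limma adjusted p = 0.0845).

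Other genes of the cell cycle, from lists by function, were read beside the members. Of 54 other mitosis genes, 51 had a mean TPM of at least 0.1, and 24 of these had every CDDP heart below every Saline heart, where 15.7% of all genes did. In the knockout, 17 of the 51 had every cisplatin heart below every control, where 15.6% of genes did. Above in that way were 2, where 6.33% of genes were. Without cisplatin, 16 of the 51 had every STING-/- heart below every Saline heart, where 4.67% of genes did, and 0 lay above. In CDDP against Saline, the limma fit tested 19 and called Cenpa, the centromeric histone, lower and Gtse1 higher, against 10.4% and 8.52% of genes. Averaged over the genotypes, Cenpa changed by -0.87 (adjusted p = 0.0225), Cks1b, a Cdk1-binding subunit, by -0.58 (adjusted p = 0.0394) and Gtse1, a p53-binding microtubule protein, by 1.38 (adjusted p = 0.00133). Gtse1 reached the minimum only through hearts with cisplatin, and it was higher in both contrasts without a minimum too. Without a minimum, 10 of 54 were lower and 2 were higher in CDDP against Saline, against 4.19% and 3.33% of genes. Cenpa was not among the 10 (adjusted p = 0.0608), and in the average Cenpa (limma adjusted p = 0.0564) and Cks1b (adjusted p = 0.0855) did not pass without a minimum.

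Of 43 other replication genes, 34 were tested, with 5 lower (Pola1, Rpa3, Prim2, Dut and Ung) and 3 higher (Pcna, Gins1 and Rpa2) in CDDP against Saline, against 10.4% and 8.52% of genes. Without a minimum Prim2, Ung and Gins1 were not called (limma adjusted p between 0.0915 and 0.0949). Averaged over the genotypes, Gins1 changed by 0.78 (limma adjusted p = 0.00712), Pola1 by -0.72 (adjusted p = 0.00256) and Prim2 by -0.57 (adjusted p = 0.0273), the last of which did not pass without a minimum (adjusted p = 0.0566). Gins1 belongs to the helicase complex, and Pola1 and Prim2 are subunits of the polymerase alpha and primase complex. Of the 43, 42 had a mean TPM of at least 0.1. Every CDDP heart lay below every Saline heart for 6 and above for 5, against 15.7% and 13.1% of genes. With cisplatin in the knockout 4 lay below and 4 above in that way, against 15.6% and 6.33%. Without cisplatin, every STING-/- heart lay below every Saline heart for 6, where 4.67% of genes did, and above for 0.

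Of 14 tested transcription factors and complexes of the cell cycle, E2f1 was lower and Rbl2 and Tfdp2 were higher in CDDP against Saline. Of all tested genes, 10.4% were lower and 8.52% were higher. E2f1 would not have met the minimum without the Saline hearts, so its lower call was partly fixed by the filter. It was also lower in the fit without a minimum, in this contrast and in the average. In the average, the 3 largest changes that passed were Tfdp2 (0.97, limma adjusted p = 0.00347), Rbl2 (0.69, adjusted p = 0.0359) and E2f1 (-0.54, adjusted p = 0.0123). E2f1 drives genes of S phase, Tfdp2 is a partner of the E2F proteins, and Rbl2 is a pocket protein of the complex that silences cell cycle genes at rest. Without a minimum, Foxm1 and Mybl2, which switch on mitosis genes, were also lower in CDDP against Saline, and Rbl2 did not pass there (limma adjusted p = 0.086) or in the average (adjusted p = 0.0801).

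Of 8 tested G1 cyclins and kinases, Ccnd2 (-1.16, limma adjusted p = 0.0149) and Cdk6 (-0.93, adjusted p = 0.00984) were lower in CDDP against Saline, where 10.4% of genes were. Ccnd2 encodes cyclin D2, and Cdk6 is a kinase that D cyclins activate. Of 10 tested inhibitors, Cdkn1a and Btg2 were higher and Cdkn1c and Ccng1 were lower in that contrast, against 8.52% and 10.4% of genes.

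Cdkn1a encodes p21, which blocks cyclin-dependent kinases and is a target of p53. Its TPM were 32.76, 48.78 and 65.84 with saline, 219.81, 195.88 and 232.08 with CDDP, 42.3, 63.3 and 46.27 for STING-/- and 171.52, 215.54 and 124.26 for STING-/-+CDDP. Cisplatin hearts lay above their controls in both genotypes. Cdkn1a rose by 2.17 in wild-type mice (SE 0.26, limma adjusted p = 8.02e-04) and by 1.72 in STING-/- mice (SE 0.26, adjusted p = 0.0156). Ccng1, another target of p53, fell by 1.04 (limma adjusted p = 0.00216) and by 0.85 (adjusted p = 0.0333), the latter not called without a minimum (adjusted p = 0.0778).

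Btg2, an antiproliferative gene that p53 also induces, was listed at 27.16, 29.44 and 20.91 TPM with saline, 110.26, 60.38 and 66.25 with CDDP, 20.42, 21.17 and 16.42 for STING-/- and 30.72, 29.91 and 20.65 for STING-/-+CDDP. It rose by 1.54 in wild-type mice (limma adjusted p = 0.00215) and was 1.48 lower on the log2 scale in STING-/-+CDDP than in CDDP (-1.48, adjusted p = 0.0216), a difference that did not pass without a minimum (adjusted p = 0.0571). Cdkn1c, the inhibitor p57, fell by 0.83 in wild-type mice (limma adjusted p = 0.0139).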

How the data were processed

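RNA of 12 mouse hearts, 3 in each of 4 groups, was sequenced. The authors extracted total RNA with TRIzol and had it sequenced by a company, and deposited TPM per gene and heart. The submitters' processing notes name fastp, HISAT, RSEM and the build GRCm38.p5, with no versions, and strandedness is not given in the sources used here. Columns summed to between 999999 and 1000001, and 4 columns of group means were not used. TPM hold no read counts, so the depth of each heart is unknown, no interval or floor from counting was given, and count tests were not used.

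Groups came from the labels. The 35 members and all gene lists were chosen with earlier results of these data known. Values were taken as log2(TPM + 1), so folds of low genes are understated. The test took the 13815 genes that reached 1 TPM in 3 or more hearts. A model with 1 coefficient per group was fitted to 12 hearts (8 residual degrees of freedom) with limma 3.58.1 in R 4.3.3 (eBayes with a trend, two-sided tests), with Benjamini-Hochberg adjustment over all tested genes and a threshold of 0.05. The fit was tested on simulated data. Intervals are 95% limma intervals, unadjusted. P-values set a difference against the spread between these 3 hearts a group, pooled over the 4 groups and moderated across genes. Per-heart values are given for members that passed and for the 3 of highest mean TPM in each role, and of other lists the 3 largest changes that passed in the average contrast, with all that passed among G1 genes and inhibitors. Mki67 and the other members named outside this rule were named to account for the list. Positions came from GENCODE M21 (GRCm38), in which 55227 identifiers were found, and promoters from RefSeq (GRCm38.p6). Plots used Python 3.11.15 and matplotlib 3.10.9. Alternatives changed the added constant, minimum, scaling, hearts, variance prior and threshold.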

Additional observations from a re-analysis of the deposited data

How the results depend on the processing

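The counts of members depended on which low genes were tested. For CDDP against Saline, 5 members passed as reported, 13 without a minimum, 1 at a minimum of 5 TPM, 2 with only the groups compared in the fit, 10 on TPM without mitochondrially encoded genes and 14 with a constant of 0.1 and a mean TPM of at least 0.1 (chosen after seeing the data). Averaged over the genotypes, 5 became 14, 1, 9 and 18 in the same order without the restricted fit, and 2 with a required change of 1 log2 unit. For CDDP against Saline, the 2 that passed with only the groups compared were Ube2c and Birc5. Lower and higher members were 4 and 1 as reported, 3 and 2 by the median of ratios, 4 and 2 by quantiles and 9 and 1 without mitochondrial genes for CDDP against Saline. The median of all genes in the knockout contrast moved from -0.11 to 0.01 by the median of ratios and 0.02 by quantiles.

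Leaving out a heart gave 2 to 5 members in both contrasts. Saline hearts 1 and 3 moved it in both, CDDP heart 3 for CDDP against Saline and STING-/-+CDDP heart 1 for the average. Without a minimum the ranges were 5 to 15 (6 without the first Saline heart) and 6 to 15 (14 without that heart). The other contrasts gave 0 members in every fit.

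The median log2 fold change of tested members for CDDP against Saline was -0.18, with -0.48 without a minimum, 0.27 at 5 TPM, -0.59 without mitochondrial genes, -1.23 with the constant of 0.1 and mean of 0.1, and -0.3 to 0.13 with a heart left out, the first Saline heart deciding its sign. With that constant and mean it was -0.65 for STING-/-+CDDP against STING-/-, -0.73 for STING-/- against Saline, 0.55 for the interaction and -0.94 for the average. At 5 TPM it was -0.38 for STING-/-+CDDP against CDDP and -0.3 for the interaction, which was 0.42 without mitochondrial genes and -0.21 to 0.21 with a heart left out.

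Signs turned for members in contrasts where they had not passed. With a heart left out, STING-/-+CDDP against CDDP gave -0.23 to 0.27 for Cdk1, -0.1 to 0.06 for Birc5 (0.03 by quantiles), -0.11 to 0.13 for Prc1 and -0.05 to 0.12 for Ube2c, and STING-/- against Saline gave -0.19 to 0.07 for Mcm4. The cause was not tested.

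Hearts of the same number are different animals. Their deviations correlated at -0.33 to 0.26, over 0.1 in 4 of 18 pairs, so the number does not pair them. With the replicate block, 5 members passed for CDDP against Saline and 5 for the average, and 0 in the other contrasts, with medians of -0.18, -0.09, -0.04, -0.09, -0.3 and 0.08. Unknown depth limits what can be said of genes near 0 TPM.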
